A study of Mus musculus with 2 samples.

Results

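The genes described here are 27 of the 31053 measured: 17 enzymes that build cholesterol from acetyl-CoA, 3 regulators of lipid synthesis and 7 genes of fatty acid synthesis, desaturation, elongation and activation. They were taken by gene symbol, and all 27 were found in both libraries. The skin came from C57Bl6 mice of 8 weeks, male and female, which had received intradermal PBS alone or 100 ng of sitagliptin, an inhibitor of the peptidase DPP4, in 100 µl of PBS; a time of 48 h is named with the processing of the skin. There was 1 library of 10x Chromium single-cell RNA for each treatment. The labels do not say how many animals went into a library and give no genotype beyond the strain. The files of each treatment carry a letter that begins the other treatment's name, so the libraries are called PBS-labelled and sitagliptin-labelled throughout, and an exchange of the labels would turn every direction between them.

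Cholesterol is built from acetyl-CoA through mevalonate, isoprenoid units and squalene to lanosterol, which a further series of enzymes demethylates and reduces. The transcription factor SREBP2, encoded by Srebf2, acts mainly on these genes and SREBP1, encoded by Srebf1, mainly on fatty acid synthesis, while Insig1 holds the SREBP precursors in the endoplasmic reticulum when sterols are plentiful. In skin, sebocytes fill with lipid and burst to release sebum, and keratinocytes of the upper epidermis make the cholesterol, fatty acids and ceramides of the permeability barrier.

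The retained cells numbered 5932 of 10456 barcodes in the PBS-labelled and 18380 of 22085 in the sitagliptin-labelled library, with medians of 6902.5 and 2197 unique molecular identifiers (UMIs). Of these cells, 46 and 65 carry a barcode that occurs in both libraries. Levels are given as counts per 1000000 UMIs (CPM), summed over the cells of a class in 1 library, followed by an exact Poisson 95% interval; a ratio is followed by an exact conditional binomial 95% interval. With 1 library per treatment no test was possible, and these intervals cover counting error only, with no variation between animals or preparations. A gene was counted as different when its CPM differed at least 1.5-fold among genes with at least 50 UMIs in the class over both libraries. The cells were clustered without the 27 genes and without the other genes of the pathway, so that neither set defined a class. The libraries divide differently among clusters: 293 PBS-labelled and 7079 sitagliptin-labelled cells are in clusters that could not be named.

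Promoters of 22 of the 27 genes are in the RefSeq table of mouse promoters (GRCm38.p6), each reaching from 250 bases before to 50 bases after the start. Those shown are of Hmgcs1, the earliest enzyme of the cholesterol group, of Msmo1 and Sc5d, enzymes of later steps of which the first was much higher and the other lower in sebocytes than in basal keratinocytes, and of Elovl6, the fatty acid gene with the largest ratio between the libraries in sebocytes. Capitals mark the core of a sterol regulatory element (TCACNCCAC on either strand) and the CCAAT box bound by NF-Y (CCAAT on either strand).
Hmgcs1, chr13:119690101-119690400, plus strand: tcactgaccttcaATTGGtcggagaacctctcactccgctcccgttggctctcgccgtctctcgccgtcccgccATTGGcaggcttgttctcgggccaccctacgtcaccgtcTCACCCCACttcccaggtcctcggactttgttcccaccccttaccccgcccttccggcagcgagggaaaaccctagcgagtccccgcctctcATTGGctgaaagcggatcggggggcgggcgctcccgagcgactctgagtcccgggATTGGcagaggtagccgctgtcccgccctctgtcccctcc
Msmo1, chr8:64733529-64733828, minus strand: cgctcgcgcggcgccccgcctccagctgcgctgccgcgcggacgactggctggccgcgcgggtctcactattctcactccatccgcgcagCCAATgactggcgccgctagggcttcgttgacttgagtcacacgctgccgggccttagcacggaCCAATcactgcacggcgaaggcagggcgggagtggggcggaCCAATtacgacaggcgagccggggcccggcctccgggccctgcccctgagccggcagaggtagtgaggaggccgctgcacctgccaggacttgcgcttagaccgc
Sc5d, chr9:42264251-42264550, minus strand: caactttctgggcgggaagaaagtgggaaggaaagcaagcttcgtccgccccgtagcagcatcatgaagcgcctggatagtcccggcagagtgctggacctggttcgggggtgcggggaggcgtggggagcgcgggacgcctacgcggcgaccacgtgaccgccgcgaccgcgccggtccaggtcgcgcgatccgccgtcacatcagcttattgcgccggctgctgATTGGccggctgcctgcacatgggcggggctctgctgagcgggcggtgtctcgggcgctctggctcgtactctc
Elovl6, chr3:129532136-129532435, plus strand: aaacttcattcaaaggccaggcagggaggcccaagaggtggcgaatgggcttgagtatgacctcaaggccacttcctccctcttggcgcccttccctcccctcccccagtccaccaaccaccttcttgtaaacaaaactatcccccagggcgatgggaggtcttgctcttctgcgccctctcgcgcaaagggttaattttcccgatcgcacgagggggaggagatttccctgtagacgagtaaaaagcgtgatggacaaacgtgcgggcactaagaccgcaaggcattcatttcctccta
The Hmgcs1 stretch holds 1 sterol element core, 137 bases before the start, and 4 CCAAT boxes, that of Msmo1 holds 3 CCAAT boxes, that of Sc5d holds 1 and that of Elovl6 holds neither motif. A CCAAT box is present in 20 of the 22 genes (90.9%) and in 42.3% of 17492 protein-coding genes with promoters of the same length. The GC box GGGCGG is present in 18 of the 22 (81.8%) against 49.2%, and the E-box CACGTG in 4 (Hsd17b7, Sc5d, Dhcr7 and Insig1; 18.2%) against 8.91%. The exact sterol element core was found in 1 of the 22 (4.55%) against 1.41%. The motifs were searched on both strands, a gene with several promoters counts once, and a match is a match of letters alone.

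Sebocytes had the highest level of most of the genes. The class of 66 PBS-labelled and 75 sitagliptin-labelled cells was named from Mgst1, Cidea, Pparg, Far2 and further sebocyte markers, of which Mogat2 and Plin5 had no UMI in it. Of the epithelial classes with at least 50 cells, sebocytes ranked first for 20 of the 27 genes in the PBS-labelled and for 24 in the sitagliptin-labelled library. Against basal keratinocytes, 23 of 26 genes were at least 1.5-fold higher in sebocytes of the PBS-labelled library, where 21.1% of all genes were, and 24 of 27 in the other, where 21.4% were. In the same comparison 1 gene (Sc5d) and 2 genes (Sc5d and Acsl3) were lower, against 24.6% and 30.0% of all genes. The 7 fatty acid genes summed to 11433 and 20192 CPM in sebocytes (PBS-labelled and sitagliptin-labelled, an order kept below) and to 291 and 302 CPM in basal keratinocytes. The 17 cholesterol enzymes summed to 4248 and 6744 CPM against 764 and 773 CPM.

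**Figure D1:**
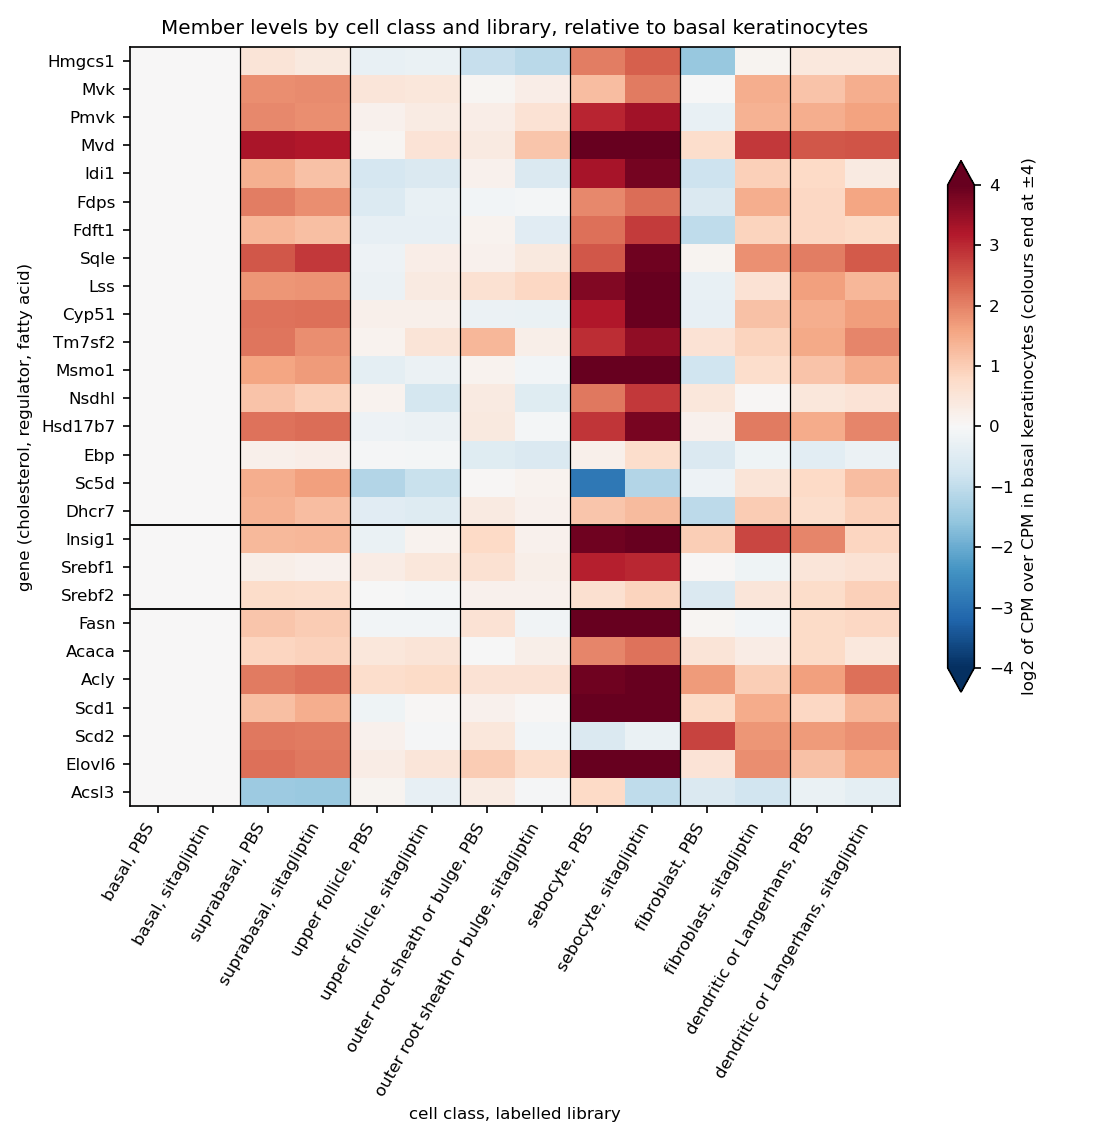
Colour gives the log2 of each gene's CPM in a cell class over its CPM in basal keratinocytes of the same library; rows are the 27 genes grouped as cholesterol enzymes, regulators and fatty acid genes, and columns are 7 classes in the PBS-labelled and sitagliptin-labelled libraries. Sebocyte columns are red for most genes and blue for Sc5d, and suprabasal columns are red for all but a few genes and blue for Acsl3.

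Scd1 (stearoyl-CoA desaturase 1, which makes oleate and palmitoleate; in mm10, chromosome 19, 44394455 to 44407879 on the minus strand) had a sebocyte level of 6691 CPM (6521 to 6864) in PBS-labelled and 10890.4 CPM (10627 to 11159) in sitagliptin-labelled cells, 84.2-fold (78.4 to 90.4) and 149.5-fold (137 to 164) its basal level. Elovl6, which lengthens palmitate to stearate (chromosome 3, 129532355 to 129638495 on the plus strand), had 3176 CPM (3059 to 3295) in PBS-labelled and 7004 CPM (6793 to 7220.2) in sitagliptin-labelled cells, 111-fold (98.8 to 125) and 204-fold (179.7 to 233) basal. In the classes other than sebocytes with at least 50 cells, the upper bound of Scd1 did not pass 289.5 CPM and that of Elovl6 did not pass 195 CPM, both in the sitagliptin-labelled fibroblasts. Fasn, the fatty acid synthase, was at 737 and 1081 CPM against 41.9 and 42.7 CPM in basal cells. Acly, which makes cytosolic acetyl-CoA from citrate, was at 647 and 1037 CPM against 43.2 and 43 CPM, and Acaca, the carboxylase that makes malonyl-CoA, at 109.9 and 123 CPM against 28.3 and 27 CPM. The fatty acid group was not uniform: Scd2 and Acsl3 did not share the high levels.

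Among the cholesterol enzymes, Hmgcs1, which makes HMG-CoA, had a sebocyte level of 981 CPM (917 to 1049) in PBS-labelled and 1363 CPM (1271 to 1460.3) in sitagliptin-labelled cells. Msmo1, which oxidizes the C4 methyl groups of sterol intermediates, stood at 898 CPM (836 to 962) in PBS-labelled and 1671 CPM (1569 to 1778) in sitagliptin-labelled cells, 17.3-fold (15.5 to 19.3) and 37.2-fold (32.8 to 42.3) its basal level. Mvd, the mevalonate diphosphate decarboxylase, was at 206 and 356 CPM against 5.57 and 4.68 CPM in basal cells, and Idi1, the isopentenyl diphosphate isomerase, at 403 and 729 CPM against 41.4 and 51.5 CPM. Cyp51, the lanosterol 14-demethylase, was at 363 and 590.0 CPM, Sqle, the squalene epoxidase, at 158 and 277 CPM, and Lss, which closes the sterol rings, at 122 and 173 CPM. Thus most genes of early and late steps alike were higher in sebocytes than in basal cells, with exceptions given next. In the PBS-labelled library Mvk, Fdps, Ebp and Dhcr7 did not rank first in sebocytes. They were at 78.2, 261, 90.7 and 94.1 CPM there and at 120, 286, 91.4 and 114 CPM in suprabasal keratinocytes. In the sitagliptin-labelled library they ranked first in sebocytes.

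Sc5d, the lathosterol 5-desaturase that acts near the end of the pathway (chromosome 9, 42251595 to 42264256 on the minus strand), was nearly absent from sebocytes. It had 3 UMIs in the 66 PBS-labelled sebocytes and 6 in the 75 sitagliptin-labelled ones, or 3.4 CPM (0.701 to 9.94) in PBS-labelled and 10.1 CPM (3.7 to 22) in sitagliptin-labelled cells. In suprabasal keratinocytes it stood at 68.5 CPM (64.6 to 72.6) in PBS-labelled and 71.5 CPM (68.9 to 74.2) in sitagliptin-labelled cells, and in basal keratinocytes at 24.9 and 22.9 CPM. The upper bounds in sebocytes lie far below the suprabasal levels in both libraries and, in the sitagliptin-labelled one, just below the basal level. Ebp and Dhcr7, the isomerase and the reductase that act just before and after Sc5d, were detected in sebocytes at 90.7 and 145 CPM and at 94.1 and 109 CPM. Ebp was there 1.14-fold (0.895 to 1.43) and 1.64-fold (1.29 to 2.05) its basal level, and Dhcr7 2.18-fold (1.7 to 2.75) and 2.39-fold (1.8 to 3.13). No 31-base word at the annotated 3′ end of Sc5d is shared with another gene. Whether the reads come from that end is not stated, so this covers 3′ reads only.

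The desaturases Scd1 and Scd2, neighbouring genes on chromosome 19 (44394455 to 44407879 and 44293674 to 44306864), had different classes at their highest level. Scd1, highest in sebocytes, was at 185 and 199 CPM in suprabasal keratinocytes. Among sebocytes Scd2 was at 30.6 CPM (20.2 to 44.5) in PBS-labelled and 40.3 CPM (25.8 to 60) in sitagliptin-labelled cells, below its suprabasal level of 195 and 204 CPM. The class with the highest Scd2 in the PBS-labelled library was the 479 fibroblasts, at 296 CPM (277 to 317), where Scd1 was at 136 CPM. Acsl3, an acyl-CoA synthetase, was at 41.9 and 16.8 CPM in sebocytes, from 37 and 10 UMIs, so its place relative to basal cells (23.9 and 33.7 CPM) differed between the libraries.

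The regulators differed from one another in sebocytes. Srebf1 was at 294 CPM (259 to 332) in PBS-labelled and 242 CPM (204 to 285) in sitagliptin-labelled cells, 8.64-fold (7.35 to 10.1) and 8.14-fold (6.54 to 10.1) its basal level. Srebf2 was at 119 and 148 CPM against 76.6 and 79.5 CPM in basal cells, 1.55-fold (1.26 to 1.9) and 1.86-fold (1.47 to 2.33) basal. Insig1, itself a known SREBP target, was at 122 and 178 CPM against 8.31 and 6.2 CPM. Of the regulators, then, Srebf1 and Insig1 stood well above basal levels in both libraries and Srebf2 by less than 2-fold.

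The sebocyte class held cells with few and with many marker UMIs, and the genes followed that range. Cells were divided by the share of their UMIs in the 10 sebocyte markers, a range without natural steps: 10 PBS-labelled and 12 sitagliptin-labelled cells lie within 0.1 percentage points of the 0.5% step. With under 0.2% (30 and 22 cells) the cholesterol enzymes summed to 775 CPM (690.5 to 868) and 969 CPM (829 to 1127), the first close to the basal keratinocyte level and the second above it. With 0.2 to under 0.5% (11 and 18 cells) they summed to 3544 and 2719 CPM, and with at least 0.5% (25 and 35 cells) to 8947 CPM (8619 to 9283) and 10906 CPM (10553 to 11269). Scd1 went from 529.7 and 711 CPM through 4576 and 3412 CPM to 15514 and 18334 CPM, and Msmo1 from 53.7 and 80.3 CPM to 2183 and 2872 CPM. Both libraries show the same order at each step for these genes.

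Srebf1 did not follow the markers. It was at 307 CPM (255 to 367) and 269.5 CPM (198 to 358) with under 0.2% of marker UMIs, 425 CPM (334 to 533) and 352 CPM (241 to 497) in the middle range and 203 CPM (156 to 259) and 197 CPM (152 to 251) with at least 0.5%. Its lowest level was thus in the cells where Fasn, at 1586 and 1811 CPM, and Scd1 were highest. Ebp and Dhcr7 went from 61.4 and 63.1 CPM to 133 and 200.2 CPM and from 48.6 and 51.6 CPM to 146 and 130.4 CPM, much narrower ranges than that of Msmo1. Sc5d had 0 UMIs in the 25 PBS-labelled cells with at least 0.5%, with an upper bound of 11.7 CPM, and 3 UMIs in the 35 sitagliptin-labelled ones.

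**Figure D2:**
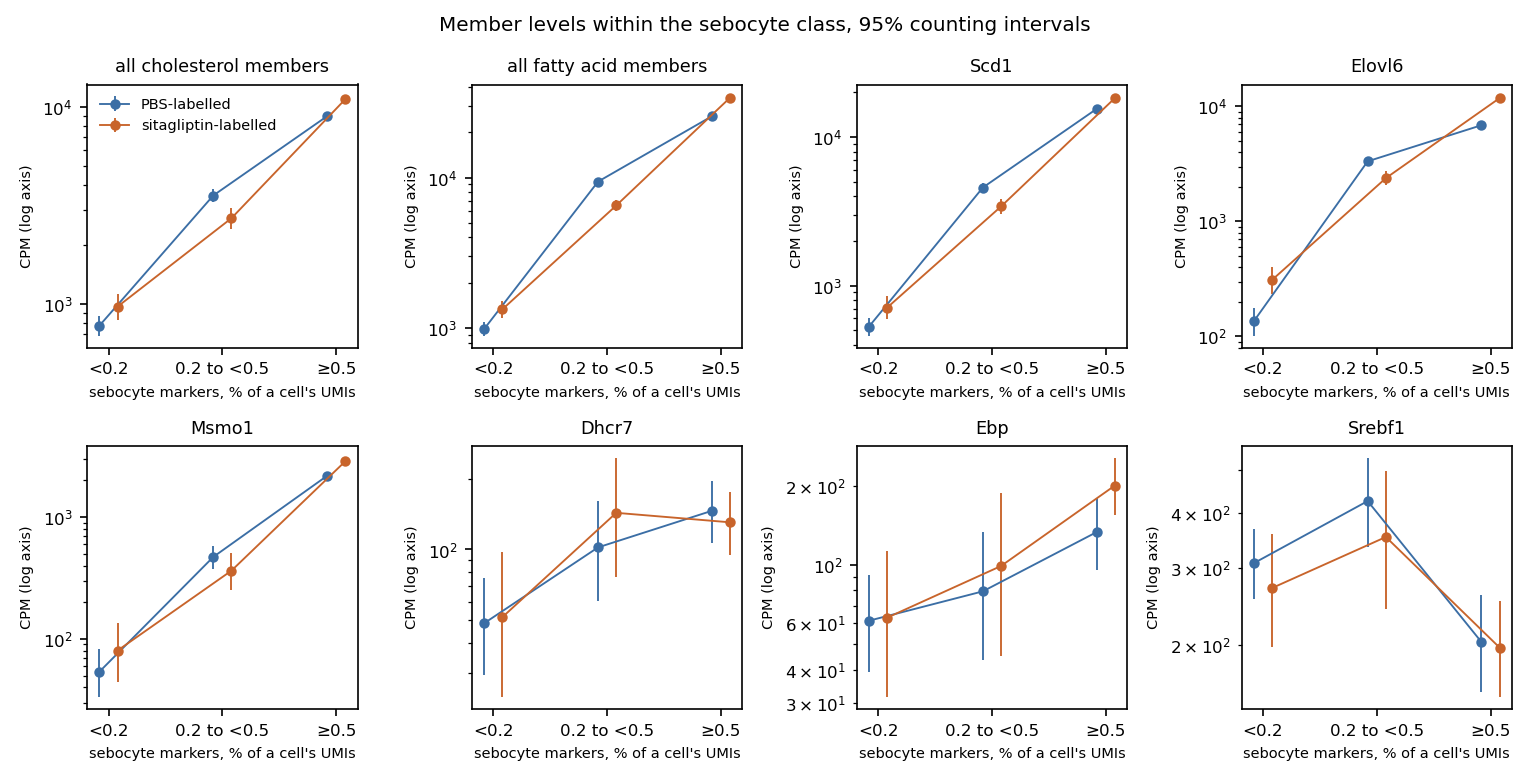
CPM (log axis) of the summed cholesterol enzymes, the summed fatty acid genes and 6 single genes in sebocytes grouped by the share of UMIs in 10 sebocyte markers, with 95% Poisson intervals, in both libraries. The sums, Scd1, Elovl6 and Msmo1 climb over the 3 groups, Ebp and Dhcr7 vary by much less, and Srebf1 is lowest in the cells with the most marker UMIs.

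Sebocyte markers were detected at low levels in the other classes. In basal keratinocytes, Cidea and Far2, which mark sebocytes, stood at 0.338% and 0.151% of their sebocyte level in the PBS-labelled library, while Scd1 stood at 1.19% and Elovl6 at 0.902%. In the sitagliptin-labelled library these were 0.126%, 0.208%, 0.669% and 0.49%. Over 6 markers (Awat1, Awat2, Pparg and Mgst1 besides these) the share ran from 0.0929% to 1.15% in the PBS-labelled and from 0 to 0.672% in the sitagliptin-labelled library, highest for Mgst1. How much of their basal level is free sebocyte RNA was not tested. One unnamed cluster of 9 PBS-labelled and 1563 sitagliptin-labelled cells, with a sitagliptin-labelled median of 1685 UMIs, was led by Hbb-bs, Far2, Scd3, Cers4 and Fa2h. Its markers placed it nearest to sebocytes, with suprabasal keratinocytes too close behind for a name. It held Cidea at 21.9%, Far2 at 22.1%, Scd1 at 16.5% and Elovl6 at 12% of the sebocyte level. With 9 cells on one side it was not compared between libraries.

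Within the epidermis both sums were higher in the suprabasal clusters than in basal cells. The first cluster compared was that of basal cells without division genes (765 and 868 cells). The next was a suprabasal cluster (897 and 1395) led by Krt16, Mt4, Krt1, Krt6b and Krt10. It is called Krt1-led below, though Krt16 came first. The last was led by Lor and Flg, which encode proteins of the uppermost living cells (100 and 299). In that order the cholesterol enzymes summed to 760.5 and 758 CPM, 2026 and 1952 CPM and 3021 and 2806 CPM. The fatty acid genes summed to 301 and 324 CPM, 863 and 895 CPM and 1161 and 1219 CPM. Suprabasal clusters found almost only in the sitagliptin-labelled library did not continue that order: the one led by Cdsn, Hrnr and Flg2 (1337 cells) had a cholesterol sum of 1919.7 CPM and another (1954 cells, median 1848 UMIs) 1515 CPM, neither above the Krt1-led cluster. Their fatty acid sums were 931 and 755 CPM, the first above and the second below that cluster's. Of the 27 genes, 23 of 26 with enough UMIs were at least 1.5-fold higher in Lor-led than in basal cells of the PBS-labelled library, against 17.6% of all genes. The same count was 24 of 27 in the sitagliptin-labelled library, against 19.7%.

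Mvd had the highest such ratio in both libraries, 11.2-fold (7.85 to 16.2) and 18.9-fold (10.9 to 35.9), on a low basal level of 5.57 and 4.68 CPM for the whole class. Elovl6 was 8.71-fold (7.36 to 10.3) and 6.28-fold (5.31 to 7.47), Sqle 8.14-fold (6.83 to 9.72) and 11.7-fold (9.15 to 15.1) and Cyp51 7.13-fold (6.13 to 8.29) and 6.73-fold (5.69 to 8.02) higher in Lor-led cells. Scd2, low in sebocytes, was 5.91-fold (5.1 to 6.87) and 6.18-fold (5.3 to 7.25) higher here, and Sc5d 3.88-fold (3.14 to 4.79) and 4.17-fold (3.34 to 5.25). Much of this was already present in the Krt1-led cluster: Sqle was 5.38-fold and 7.47-fold and Mvk, the mevalonate kinase, 4.03-fold and 4.6-fold higher there than in basal cells, and Mvk was 4.29-fold and 4.69-fold higher in Lor-led ones. Hmgcs1 was 1.91-fold and 1.67-fold higher in Lor-led than in basal cells, a smaller ratio than that of every other cholesterol enzyme except Ebp, from a basal level of 239 and 257 CPM.

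A few genes stood apart from that order. Acsl3 was lower in Lor-led than in basal cells, 4.71-fold and 4.6-fold, the only one of the 27 at least 1.5-fold lower there in either library, against 44.3% and 38.4% of all genes. Srebf1 was nearly level, with ratios of 1.3-fold (0.994 to 1.69) and 0.976-fold (0.756 to 1.26), and Ebp was 1.45-fold (1.22 to 1.71) and 1.49-fold (1.29 to 1.73) higher. Srebf2 was 2.41-fold (2.07 to 2.8) and 2.18-fold (1.9 to 2.51) and Insig1 2.21-fold (1.37 to 3.51) and 3.2-fold (2.02 to 5.28) higher. Dividing suprabasal cells (151 and 419), which carry Krt1 and Krt10 with Nusap1 and Top2a, had cholesterol sums of 1466 and 1507 CPM, between basal and Krt1-led cells. Dividing basal cells (412 and 460) had 768 and 788 CPM, close to the basal cells without division genes.

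**Figure D3:**
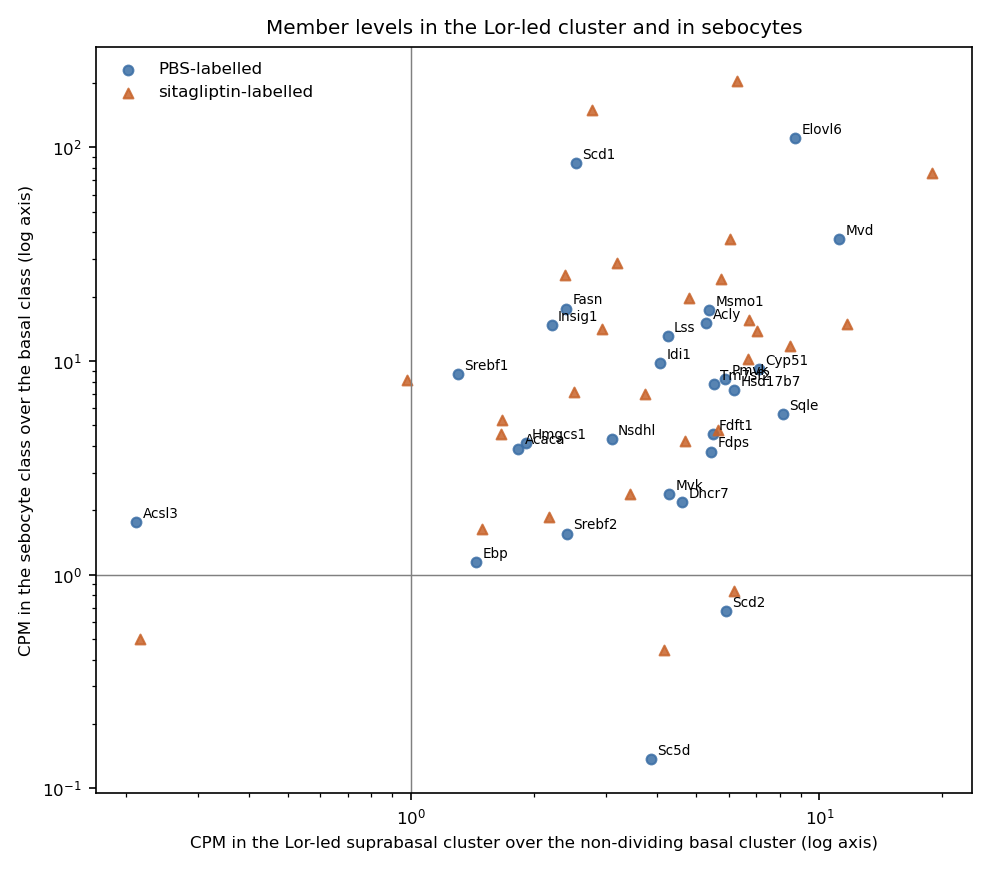
Each gene is placed by its CPM in the Lor-led suprabasal cluster over that in the non-dividing basal cluster and by its CPM in sebocytes over that in basal keratinocytes (both log axes); circles are the PBS-labelled and triangles the sitagliptin-labelled library, with names beside the circles. Sc5d and Scd2 lie right of 1 and below 1, Acsl3 lies left of 1, and Scd1 and Elovl6 are at the top.

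In the upper follicle and outer root sheath classes the cholesterol sums were below, and the fatty acid sums a little above, those of basal keratinocytes. Upper follicle keratinocytes, marked by Krt79, Cst6 and Defb6 (1120 and 2811 cells), had cholesterol sums of 651 and 682 CPM and fatty acid sums of 329 and 349 CPM. Outer root sheath or bulge keratinocytes (195 and 1133 cells) had 675 and 608 CPM and 395 and 342 CPM. Companion or inner bulge keratinocytes, with 305 cells in the sitagliptin-labelled library, stood above its basal cells, at 908 and 430.3 CPM. Within the upper follicle class, one cluster of 703 sitagliptin-labelled cells also did, at 1031 and 587 CPM. Hmgcs1 was at 128 and 122 CPM in the outer root sheath class against 195 and 214 CPM in the upper follicle, and Sc5d at 25.7 and 25 CPM against 11.2 and 12.3 CPM. The 22 genes other than Hmgcs1, Sc5d, Mvd, Tm7sf2 and Elovl6 were within 2-fold of their basal levels in both follicle classes of both libraries.

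Dermal and immune cells came mostly from the PBS-labelled library. Fibroblasts had a cholesterol sum of 471 CPM and a fatty acid sum of 715 CPM in that library, with Scd2, Acly and Scd1 the fatty acid genes above 100 CPM. Macrophages (467 cells) had 565 and 388 CPM, and the class named monocyte (581) 592 and 318 CPM. That class scored nearly as high for macrophage markers (5.19) as for monocyte markers (5.92). At a Leiden resolution of 2, a cluster of 353 PBS-labelled cells led by Retnla and Lyz1 was named macrophage. Another of 222, led by Lyz2 and Ly6c2, was named monocyte. T cells or innate lymphoid cells (99) had 1152 and 528 CPM, and lymphatic endothelial cells (50) 387 and 387 CPM. Dendritic or Langerhans cells (98 and 62) stood above the other immune classes, with 1372 and 1532 CPM for cholesterol and 627 and 786 CPM for fatty acid genes, and had Srebf2 at 127 CPM (111 to 144) in PBS-labelled and 153 CPM (131 to 178) in sitagliptin-labelled cells. This was the highest class level of Srebf2, but not apart from suprabasal keratinocytes in the first (126 CPM) or from sebocytes in the second (148 CPM). Dendritic or Langerhans cells had medians of 15293 and 17688 UMIs, against 4520 and 4179 in PBS-labelled macrophages and monocytes. With the pathway genes kept for clustering, suprabasal markers scored second in their cluster (1.32 against 2.91). The part of keratinocyte RNA in these levels was not tested.

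Across the 20 clusters with at least 50 cells in a library, most cholesterol enzymes went up and down together. Spearman's rho of Cyp51 with the sum of the other 16 enzymes was 0.935 and 0.959, and that of Fdft1, the squalene synthase, 0.901 and 0.961. Cyp51 had the highest value of the PBS-labelled and Fdft1 that of the sitagliptin-labelled library. Values were lower in the PBS-labelled library for Ebp (0.517 and 0.783), Mvd (0.609 and 0.89) and Mvk (0.614 and 0.895). Fasn, outside the cholesterol group, had 0.898 and 0.923. Sc5d had 0.633 and 0.633 with sebocytes and 0.905 and 0.874 over the 19 other clusters. For Srebf1 the values were 0.529 and 0.158, and for Srebf2 0.91 and 0.704. The clusters of a library share its cells' preparation, depth and free RNA, and the coefficients only describe these clusters.

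Between the libraries, the genes were close to level in the epidermis. In basal keratinocytes 0 of the 26 genes with at least 50 UMIs were at least 1.5-fold higher in the sitagliptin-labelled library, against 3.50% of all genes, and 0 were lower, against 2.64%. The cholesterol sum there was 1.01-fold (0.978 to 1.05) and the fatty acid sum 1.04-fold (0.983 to 1.1) that of the PBS-labelled library. Sqle and Nsdhl came nearest to 1.5-fold without reaching it: Sqle was at 28 CPM (25 to 31.3) in PBS-labelled and 18.7 CPM (15.7 to 22.2) in sitagliptin-labelled cells, a ratio of 0.668 (0.542 to 0.819), and Nsdhl, a sterol C4 decarboxylase, at 12.9 and 19.1 CPM, 1.48-fold (1.17 to 1.88).

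In suprabasal keratinocytes 0 of 27 were at least 1.5-fold higher (5.49% of all genes) and 0 lower (2.38%). The cholesterol sum was 0.943-fold (0.931 to 0.956) and the fatty acid sum 1.06-fold (1.04 to 1.08) that of the PBS-labelled library. Fdps, the farnesyl diphosphate synthase, stood at 286 CPM (278 to 294) in PBS-labelled and 220.2 CPM (216 to 225) in sitagliptin-labelled cells, 1.3-fold lower (1.25 to 1.35), and Insig1 at 20.5 and 15.7 CPM, 1.31-fold lower (1.14 to 1.49). Of the 31-base words at the 3′ end of Fdps, 69.3% also occur in Gm43738, so reads of the 2 may have been divided or lost. The class is made up differently in the libraries, with 897 of 1204 PBS-labelled cells in the Krt1-led cluster and 3291 of 5404 sitagliptin-labelled cells in 2 clusters that hold 56 PBS-labelled cells. In the Krt1-led cluster alone the cholesterol sum was 0.963-fold (0.946 to 0.981), and in the Lor-led cluster 0.929-fold (0.90 to 0.959) that of the PBS-labelled library.

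In upper follicle keratinocytes 1 of 27 genes was at least 1.5-fold higher (3.12% of all genes) and 0 lower (1.97%). That gene was Tm7sf2, a sterol C14 reductase, at 2.26 CPM (1.52 to 3.25) in PBS-labelled and 5.12 CPM (4.09 to 6.33) in sitagliptin-labelled cells, 2.26-fold (1.47 to 3.58); 8.59% of the words at its 3′ end lie in the overlapping gene Vps51, whose reads it may share. The cholesterol sum was 1.05-fold (1.02 to 1.08) and the fatty acid sum 1.06-fold (1.02 to 1.1) that of the PBS-labelled library. Both sums changed side of 1 under 3 alternatives, with values of 0.987 to 1.12 and 0.978 to 1.2 over all alternatives. In outer root sheath or bulge keratinocytes 0 of 24 were higher (7.18%) and 2 lower (4.90%). Fdft1 was at 48.3 CPM (35.5 to 64.3) in PBS-labelled and 28.4 CPM (23.3 to 34.3) in sitagliptin-labelled cells, 1.7-fold lower (1.18 to 2.42), and Fasn at 62.7 CPM (48 to 80.6) in PBS-labelled and 38.3 CPM (32.4 to 45) in sitagliptin-labelled cells, 1.64-fold lower (1.19 to 2.22). The sums were 0.901-fold (0.826 to 0.984) and 0.866-fold (0.773 to 0.973) those of the PBS-labelled library.

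Sebocytes showed the widest difference of the 5 epithelial classes compared. There 12 of 24 genes were at least 1.5-fold higher in the sitagliptin-labelled library, against 8.00% of all genes, and 0 were lower, against 6.84%. The cholesterol sum was 1.59-fold (1.52 to 1.66), the fatty acid sum 1.77-fold (1.72 to 1.81) and the sum of the 3 regulators 1.06-fold (0.921 to 1.22) that of the PBS-labelled library. The median log2 ratio of the 24 genes was 0.61, beside -0.01 over all 4300 genes counted in the class. Elovl6 was 2.21-fold (2.1 to 2.31) and Scd1 1.63-fold (1.57 to 1.69) higher, from the levels given above, and Acly 1.6-fold (1.43 to 1.8). Among the cholesterol enzymes Nsdhl was 2.45-fold (1.7 to 3.57), Msmo1 1.86-fold (1.69 to 2.05), Idi1 1.81-fold (1.57 to 2.09), Hsd17b7 1.8-fold (1.36 to 2.38) and Sqle 1.76-fold (1.4 to 2.22) higher. Mvd, Mvk, Cyp51 and Ebp were 1.73-fold (1.41 to 2.12), 1.7-fold (1.21 to 2.38), 1.63-fold (1.39 to 1.9) and 1.59-fold (1.16 to 2.19) higher. Srebf1 was at 0.825 of its PBS-labelled level (0.668 to 1.01).

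That difference moved with the sebocyte markers and with the choice of cells. The 10 markers summed to 3843 and 5742 CPM, with 7 of 10 higher in the sitagliptin-labelled library and Mogat2 and Plin5 at 0 in both. In cells with at least 0.5% of marker UMIs the cholesterol sum was 1.22-fold (1.16 to 1.28), the fatty acid sum 1.33-fold (1.29 to 1.37) and the marker sum 1.17-fold (1.11 to 1.24) that of the PBS-labelled library. With 0.2 to under 0.5% the direction was the opposite, with sums of 0.767-fold (0.659 to 0.89) and 0.694-fold (0.631 to 0.763) beside a marker sum of 1.02-fold (0.889 to 1.17). With under 0.2% the sums were again higher, 1.25-fold (1.03 to 1.51) and 1.35-fold (1.14 to 1.59), beside a marker sum of 1.16-fold (0.978 to 1.37). Krt1 and Krt10, suprabasal markers, together were 2.91-fold (2.39 to 3.55) and 2.74-fold (2.07 to 3.63) higher in the sitagliptin-labelled cells of the lowest and the middle range and 1.1-fold (0.964 to 1.26) in the highest, and over the class the 8 suprabasal markers summed to 1796 and 3311 CPM, 7 of them higher, and the basal ones to 7082 and 6176 CPM; their part was not tested. Among the cells with at least 0.5%, 3 of 23 genes were at least 1.5-fold higher: Elovl6 at 6859 and 11819 CPM, 1.72-fold (1.63 to 1.82), Nsdhl at 108 and 224 CPM, 2.08-fold (1.37 to 3.22), and Ebp at 133 and 200.2 CPM, 1.5-fold (1.01 to 2.27). The share of all genes past 1.5-fold is not given for these cells, so this count has no background beside it. Scd1 was 1.18-fold (1.14 to 1.23) higher in these cells. With Leiden resolutions of 0.5 and 2, where the class takes in 964 and 1507 sitagliptin-labelled cells beside 73 and 75 PBS-labelled ones, the cholesterol sum was 0.844 and 0.712 and the fatty acid sum 0.776 and 0.60 of the PBS-labelled level. At 0.5 the class had medians of 11633 PBS-labelled and 1840.5 sitagliptin-labelled UMIs. At 2 it included a cluster of 5 PBS-labelled and 1293 sitagliptin-labelled cells, with medians of 1741 and 1617 UMIs. The cells compared there were thus unlike in depth and number. The direction in sebocytes thus depended on which cells counted as sebocytes. Across the marker ranges it was reversed only in the middle one (11 and 18 cells).

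**Figure D4:**
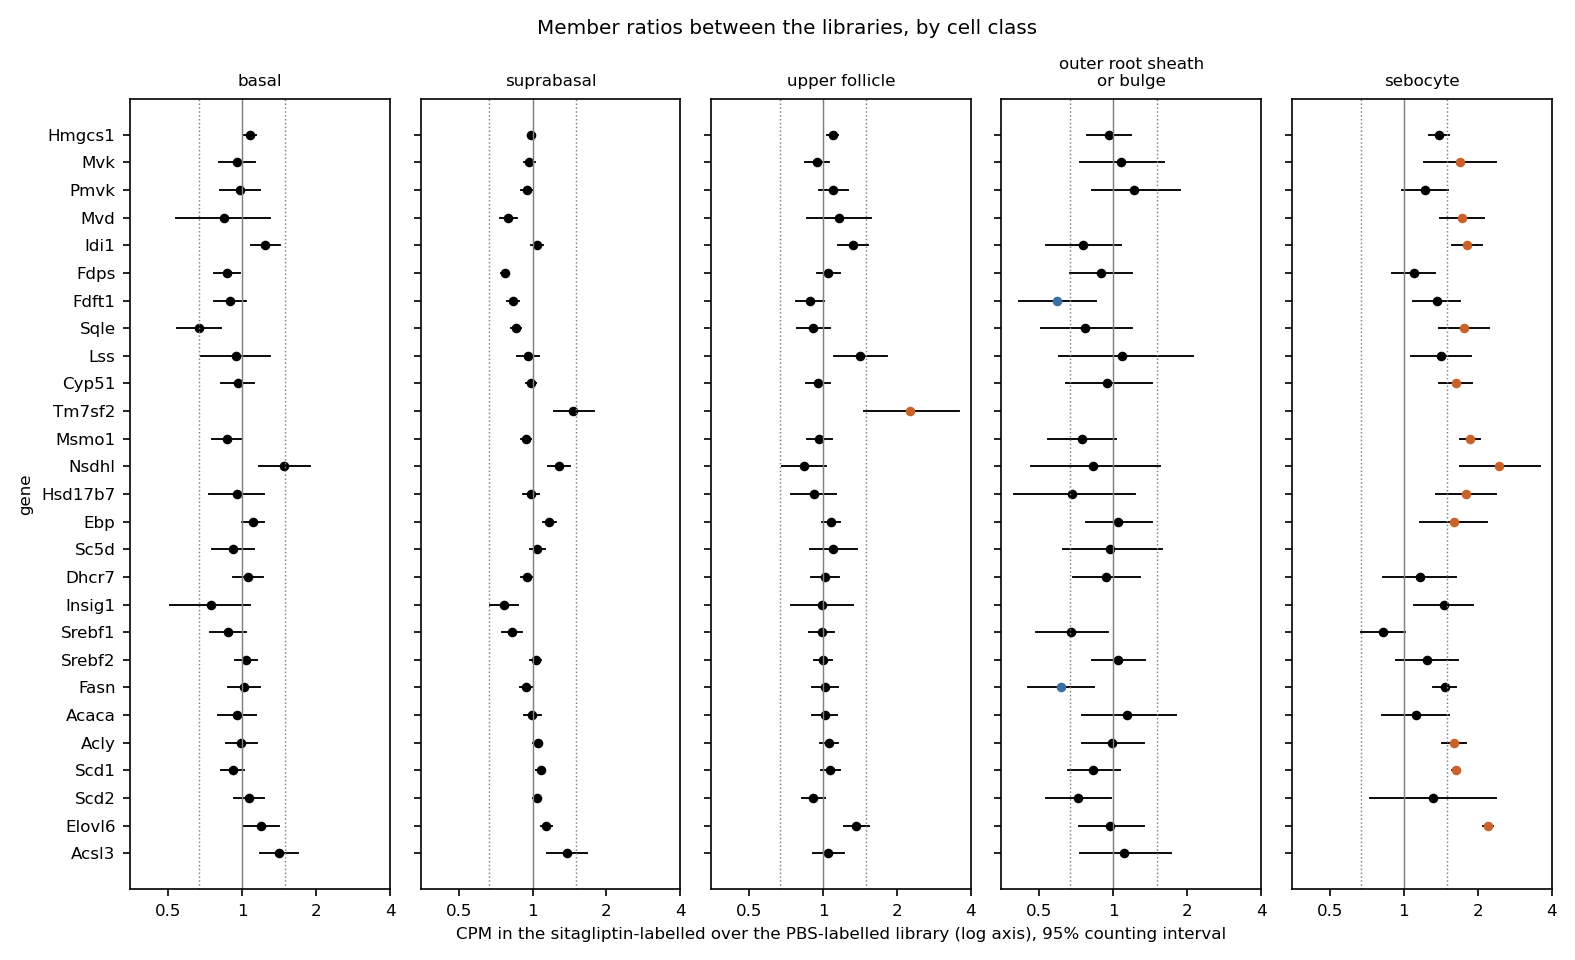
Ratio of CPM in the sitagliptin-labelled over the PBS-labelled library (log axis) for each gene with at least 50 UMIs in 5 epithelial classes, with 95% counting intervals; dotted lines mark 1.5-fold, orange and blue points lie past them. Points lie near 1 in the basal, suprabasal and upper follicle panels apart from Tm7sf2, 2 lie below the lower line in the outer root sheath panel, and 12 lie above the upper line in the sebocyte panel.

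The other genes of lipid synthesis, from separate lists that were also chosen with earlier results of these data known, took part in the sebocyte difference to unequal extents. Their values are for the whole class at the Leiden resolution of 1, and none is given by marker range or at the other resolutions. In either direction, 17 of 34 of them (50%) were at least 1.5-fold apart, against 14.8% of all 4300 genes. Of all genes, 8.00% were higher and 6.84% lower. The lists of SREBP regulation and of the liver X receptor hold too few counted genes to be set against these shares. Of the cholesterol esterification and triglyceride genes, 4 of 5 were at least 1.5-fold higher and 0 lower: Agpat2 at 1.94-fold (1.57 to 2.4), Lpin1, Dgat1 and Soat1, which esterifies cholesterol, at 1252 and 2106 CPM. Of 16 other fatty acid genes 9 were higher and 0 lower, with Elovl5 highest at 2.31-fold (1.95 to 2.73) and Elovl7 lowest at 0.813 of its PBS-labelled level. Acss2, Slc25a1 and Scd3 were 2.08-fold, 2.03-fold and 2.01-fold, and Hacd3, Acacb, Acsl1, Hsd17b12 and Tecr 1.57-fold to 1.73-fold. Of the other sterol genes, Acat2 was 1.69-fold (1.39 to 2.06) higher and Lbr stood at 0.777 of its PBS-labelled level. Of 7 genes of SREBP regulation 1 was higher, Erlin2 at 1.98-fold (1.13 to 3.51), and the list summed to 0.963 of its PBS-labelled level; Mbtps1 was lowest. Of 2 liver X receptor genes counted, Lpcat3 was 1.55-fold (1.35 to 1.78) and Abca1 1.18-fold (0.941 to 1.47) higher.

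The elongases outside the 27 also differed between the classes. Elovl1 was at 412 and 515 CPM in suprabasal keratinocytes and 43.1 and 53.8 CPM in sebocytes, and Elovl7 at 156 and 159.6 CPM and 82.7 and 67.2 CPM. Elovl5 was at 10.8 and 14.8 CPM and 263 and 607 CPM, the reverse, as for Elovl6. Elovl4, known for the very long acyl chains of barrier ceramides, was higher in sebocytes too, at 662 and 698 CPM and 3639 and 4501 CPM.

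In the keratinocyte classes, the other pathway genes at least 1.5-fold apart in either direction numbered 4 of 37 (10.8%, against 6.14% of all genes) in basal, 2 of 41 (4.88%, against 7.87% of all genes) in suprabasal and 1 of 40 (2.5%, against 5.09% of all genes) in upper follicle cells. In outer root sheath or bulge cells they numbered 7 of 34 (20.6%, against 12.1% of all genes). Acsl4, an acyl-CoA synthetase for polyunsaturated fatty acids, was 1.71-fold (1.43 to 2.04) higher in basal and 2.07-fold (1.78 to 2.42) higher in suprabasal cells of the sitagliptin-labelled library. Scd3 was 2.86-fold (1.8 to 4.77) higher in suprabasal cells on a level of 1.25 and 3.59 CPM. In basal cells Acss2 and Dgat2 were 1.6-fold (0.99 to 2.59) and 1.58-fold (1.15 to 2.16) higher and Abcg1, which exports cholesterol, was 2.06-fold lower.

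One cluster of the follicle had lower cholesterol genes in the sitagliptin-labelled library. It was led by Ramp1, Sncg, Fgf18, Krt15 and Cd34, scored for both the bulge and the companion layer markers and so stayed unnamed, and held 63 PBS-labelled and 338 sitagliptin-labelled cells with median UMIs of 3558 and 1800. Of 14 genes with at least 50 UMIs, 6 were at least 1.5-fold lower (9.12% of all genes) and 1 higher (8.84%). Msmo1 was at 173 CPM (131 to 225) against 52.8 CPM (38.6 to 70.4), lower by 3.29-fold (2.19 to 4.97). Sqle was at 115 CPM (80.7 to 158) against 31 CPM (20.4 to 45.1), lower by 3.7-fold (2.19 to 6.32), and Fdft1 at 127 CPM (91.1 to 172) against 47 CPM (33.7 to 63.8), lower by 2.7-fold (1.71 to 4.27). Hmgcs1, Fdps and Srebf2 were lower by 1.9-fold (1.44 to 2.5), 1.96-fold (1.35 to 2.83) and 1.57-fold (1.07 to 2.29), and Mvk, at 9 and 44 UMIs, was the gene that was higher. Insig1, below the limit of 50 UMIs, had 19 and 5. The cholesterol sum was 1.78-fold lower (1.57 to 2.01), while the fatty acid sum was 0.847 (0.684 to 1.05) of the PBS-labelled level.

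Markers of neighbouring classes also differed in that cluster. The suprabasal list summed to 5959 and 9122 CPM, the upper follicle list to 2927 and 1865 CPM and the companion or inner bulge list to 1552 and 1070.2 CPM, with the outer root sheath list at 5148 and 5436 CPM; their part was not tested. Matched clusters at both other resolutions and with the pathway genes included gave cholesterol sums of 0.547 to 0.562 of the PBS-labelled level. They held nearly the same cells (0.938 to 0.995 of the cells in either cluster were in both), so close values were bound to follow. A further unnamed cluster, led by Dct, Acta2 and Tagln and so a mixture of cell types (148 and 250 cells), had 8 of 20 genes lower (7.26%) and 0 higher (6.24%), and its melanocyte markers went from 1083 to 525 CPM.

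**Figure D5:**
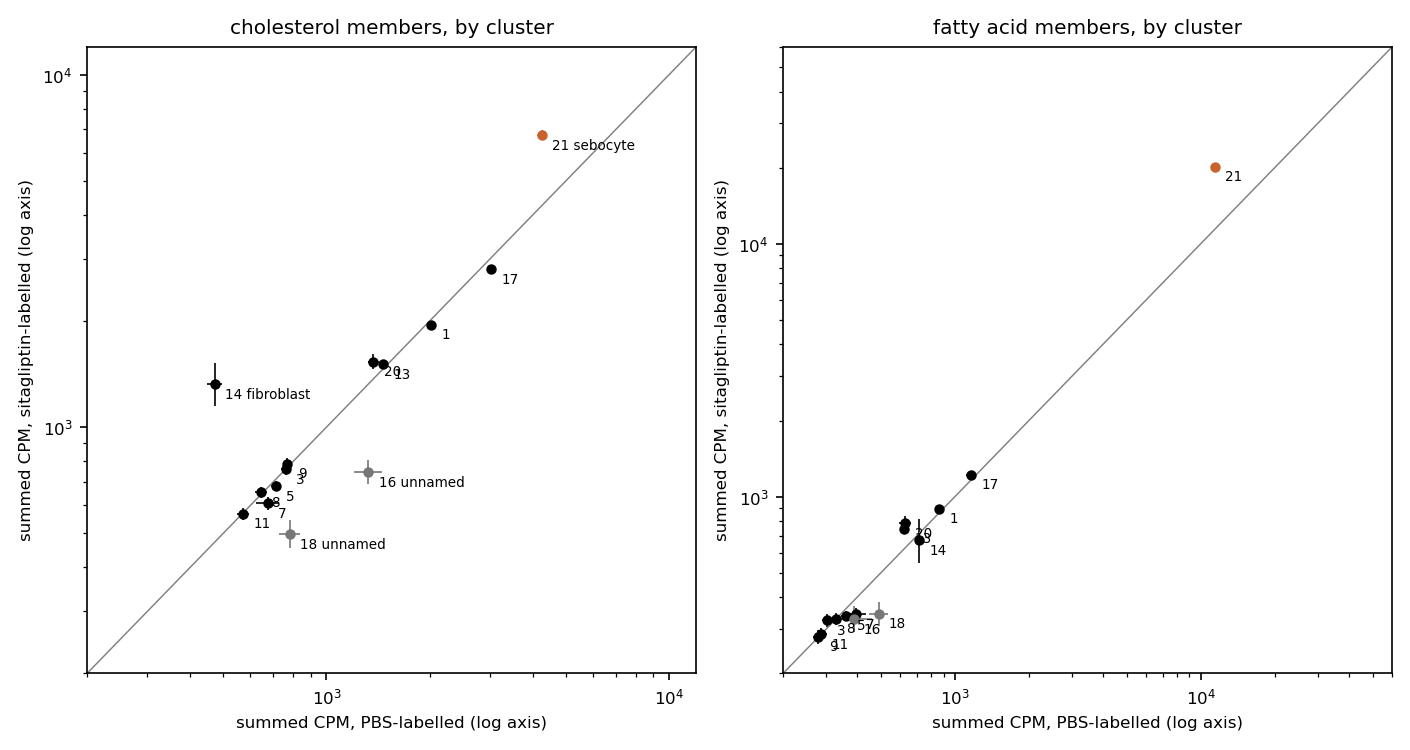
Summed CPM of the 17 cholesterol enzymes (left) and the 7 fatty acid genes (right) in each cluster with at least 50 cells in both libraries, PBS-labelled against sitagliptin-labelled (log axes, 95% Poisson intervals, numbers are cluster numbers). Most clusters lie on the line of equality; sebocytes and, on the left, fibroblasts lie above it, and the unnamed clusters 16 and 18 lie below it on the left.

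The fibroblast class compared cells of unlike composition. In the 52 sitagliptin-labelled fibroblasts, 15 of 24 genes were at least 1.5-fold higher (17.9% of all genes) and 2 lower (34.1%) than in the 479 PBS-labelled ones. The cholesterol sum was 471 and 1323 CPM, 2.81-fold (2.41 to 3.26), and Hmgcs1, on 251 and 42 UMIs, was at 83.9 and 276 CPM. Beside it, the basal keratinocyte markers summed to 4037 and 18035 CPM and the suprabasal ones to 5294 and 24503 CPM, with all 15 markers higher, and the fibroblast markers to 32965 and 10869.9 CPM, with all 7 lower. Scd2, the fatty acid gene typical of the PBS-labelled fibroblasts, was 1.8-fold lower (1.21 to 2.8) and Acly 1.64-fold lower (0.947 to 3.1). With every cell thinned to 1000 UMIs, 4 genes kept at least 50 UMIs, of which 2 were at least 1.5-fold apart, and the cholesterol sum was 3.28-fold. Only 5 of the 52 cells, against 408 of the 479, had at most 1% of their UMIs in keratinocyte markers, too few for a comparison.

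In dendritic or Langerhans cells 2 of 26 genes were at least 1.5-fold higher (5.66% of all genes) and 1 lower (8.63%). Elovl6 was 1.54-fold (1.18 to 2.01) and Nsdhl 1.56-fold (0.925 to 2.63) higher, and Insig1, on 61 and 12 UMIs, was 2.87-fold lower (1.53 to 5.85). Their cholesterol sum was 1.12-fold (1.05 to 1.19) and fatty acid sum 1.25-fold (1.15 to 1.37) that of the PBS-labelled library.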

How the data were processed

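Single-cell RNA was measured in 1 PBS-labelled and 1 sitagliptin-labelled library of mouse skin. The authors deposited whole UMI counts per gene and barcode, per the file headers; the submitters' processing notes name Cell Ranger 3.1.0 and the build mm10, and whether the chemistry reads the 3′ or 5′ end is not stated there. A barcode was kept if it had no fewer than 500 genes and 1000 UMIs and no more than 10% mitochondrial UMIs, and both libraries were clustered together (scanpy 1.11.5, Python 3.11.15; 10000 counts per cell and natural log, 2000 variable genes, 30 principal components, 15 neighbours, Leiden resolution 1) without the 27 genes and the other pathway genes. Scrublet marked 2 and 0 cells as doublets, so it did not work, and doublets were not removed. A cluster was named from 22 marker lists where at least 3 markers were found in at least 10% of its cells, the mean log2 excess of the best list was at least 0.8 and the second list scored at most 0.6 of it. The limit on the second list was not applied among the macrophage, monocyte and dendritic lists or between the blood and lymphatic endothelial lists. Of 28 clusters, 5 stayed without a name. UMIs were summed per library and class, classes with under 50 cells in a library were not compared, and no test was run. The ratio step was tested on simulated counts. Of the 49 other pathway genes listed, 47 were found; 1 of them is not reported here. All members could be named in every class, and of each other list those past 1.5-fold and those with the highest and lowest ratio; Elovl1, Elovl4 and Elovl7 in suprabasal cells, Soat1 for its level and the examples of levels across classes were chosen after their values were seen. The members and lists were chosen with earlier results of these data known. Promoters were read from RefSeq, and gene positions from the GENCODE annotation of GRCm38, in which 30934 of 31053 genes matched. The alternatives concern the filters on cells and genes, depth, the total, the mean over cells, the clustering genes and resolution, doublets, shared barcodes and the weighting of clusters; 2 further ones, on sebocytes and on fibroblasts, were added after the data were seen. Nothing says that the libraries come from separate animals or pools.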

Additional observations from a re-analysis of the deposited data

Results flagged for a closer look

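Fdft1, the squalene synthase, differed between the libraries in opposite directions in 2 classes. In fibroblasts its level in the sitagliptin-labelled library was 3.38-fold that of the PBS-labelled library, and in outer root sheath or bulge keratinocytes it was 0.588 of it. With 1 library per treatment the difference between these classes was not tested, and the basal and suprabasal keratinocyte markers were higher in the sitagliptin-labelled fibroblasts.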

How the results depend on the processing

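The place of sebocytes changed little: over all alternatives 18 to 25 of the 27 genes in the PBS-labelled and 19 to 24 in the sitagliptin-labelled library were highest there among epithelial classes. At the Leiden resolution of 1, the higher sums in sitagliptin-labelled sebocytes held for the whole class and for its cells with at least 0.5% of marker UMIs (1.22 to 1.59 for cholesterol, 1.33 to 1.77 for fatty acid genes). They held for the cells with under 0.2% (1.25 and 1.35) but not for those with 0.2 to under 0.5%. The sums reversed at resolutions of 0.5 and 2, where the class took in many more sitagliptin-labelled cells, with lower median UMIs. The cholesterol sum stayed below 1 in suprabasal cells (0.768 to 0.96) and in unnamed cluster 16 (0.524 to 0.608) and above 1 in fibroblasts (2.12 to 4.03). In upper follicle cells both sums, and in basal cells the cholesterol sum, lay on either side of 1, while the basal fatty acid sum was 1.01 to 1.34. Of the counts and sums under alternatives, 163 stayed within the main value's limits, 60 moved and 12 reversed, and of single genes 1684, 178 and 45; the ratios below are sitagliptin-labelled over PBS-labelled, counts are given of the genes with enough UMIs, which are fewer after thinning, and the cause of each change was not tested. At a Leiden resolution of 0.5, the cholesterol sum was 1.18 in basal, 0.96 in suprabasal, 0.988 in upper follicle, 0.795 in outer root sheath or bulge, 0.844 in sebocyte, 2.12 in fibroblast and 1.02 in dendritic or Langerhans cells. At that resolution, the fatty acid sum was 1.34 in basal, 0.981 in upper follicle, 0.776 in sebocyte and 1.13 in dendritic or Langerhans cells. The genes at least 1.5-fold apart numbered 5 of 27 in basal, 1 of 27 in suprabasal, 9 of 26 in outer root sheath or bulge and 1 of 26 in dendritic or Langerhans cells. For this and the later counts under alternatives, the share of all genes past 1.5-fold is not given. They show how the counts moved and do not set the 27 genes against other genes. In basal cells the ratio changed side of 1 for Fdps (1.1), Sqle (1.15) and Msmo1 (1.09). In sebocyte cells the ratio changed side of 1 for Hmgcs1 (0.716), Mvd (0.812), Idi1 (0.827), Fdft1 (0.689), Sqle (0.88), Lss (0.664), Cyp51 (0.82), Msmo1 (0.90), Hsd17b7 (0.908), Insig1 (0.825), Fasn (0.648), Acly (0.72), Scd1 (0.739) and Elovl6 (0.891). At a Leiden resolution of 2, the cholesterol sum was 0.768 in suprabasal and 0.712 in sebocyte cells, the fatty acid sum was 0.871 in suprabasal and 0.60 in sebocyte cells and the genes at least 1.5-fold apart numbered 4 of 27 in suprabasal cells. In suprabasal cells the ratio changed side of 1 for Nsdhl (0.988), Acly (0.843), Scd1 (0.939), Scd2 (0.834) and Elovl6 (0.898). In sebocyte cells the ratio changed side of 1 for Hmgcs1 (0.61), Mvd (0.639), Idi1 (0.673), Fdft1 (0.594), Sqle (0.77), Lss (0.521), Cyp51 (0.682), Msmo1 (0.707), Nsdhl (0.988), Hsd17b7 (0.775), Insig1 (0.657), Fasn (0.514), Acly (0.581), Scd1 (0.567) and Elovl6 (0.679). With at least 1 UMI in each library per gene in place of 50, the genes at least 1.5-fold apart numbered 1 of 27 in basal cells. They numbered 15 of 27 in unnamed cluster 16 and 13 of 27 in unnamed cluster 18. With at least 20 UMIs per gene, the genes at least 1.5-fold apart numbered 1 of 27 in basal cells, 13 of 25 in cluster 16 and 13 of 26 in cluster 18. Among cells of no fewer than 1000 genes and 2000 UMIs, the cholesterol sum was 0.957 in suprabasal cells and the genes at least 1.5-fold apart numbered 1 of 26 in basal cells. In cells thinned to 1000 UMIs, the cholesterol sum was 0.83 in suprabasal, 1.09 in upper follicle, 0.809 in outer root sheath or bulge, 3.28 in fibroblast and 0.927 in dendritic or Langerhans cells. Thinned, the fatty acid sum was 1.21 in basal, 1.15 in upper follicle, 1.62 in sebocyte and 1.14 in dendritic or Langerhans cells. In cluster 18 it was 0.606. After thinning, the genes at least 1.5-fold apart numbered 2 of 21 in basal, 4 of 27 in suprabasal, 6 of 8 in sebocyte, 2 of 4 in fibroblast and 0 of 0 in dendritic or Langerhans cells. In clusters 16 and 18 they numbered 0 of 1 and 0 of 0. In basal cells the ratio changed side of 1 for Sqle (1.25), Msmo1 (1.02) and Ebp (0.946). In suprabasal cells the ratio changed side of 1 for Msmo1 (1.01), Ebp (0.997) and Acly (0.89). With clusters weighted equally, the cholesterol sum was 0.987 in upper follicle cells, the fatty acid sum was 0.978 in upper follicle cells and the genes at least 1.5-fold apart numbered 1 of 27 in suprabasal cells. With the mean of each cell's CPM, the cholesterol sum was 0.859 in suprabasal, 1.12 in upper follicle and 3.47 in fibroblast cells. By that mean, the fatty acid sum was 1.01 in suprabasal, 1.2 in upper follicle and 1.64 in sebocyte cells. Counted so, the genes at least 1.5-fold apart numbered 1 of 26 in basal, 3 of 27 in suprabasal, 4 of 27 in upper follicle, 4 of 24 in outer root sheath or bulge and 7 of 26 in dendritic or Langerhans cells. In suprabasal cells the ratio changed side of 1 for Acly (0.925) and Scd2 (0.99). With mitochondrial, ribosomal protein and haemoglobin genes out of the total, the cholesterol sum was 0.914 in suprabasal and 1.51 in sebocyte cells, the fatty acid sum was 1.02 in suprabasal and 1.68 in sebocyte cells and the genes at least 1.5-fold apart numbered 1 of 26 in basal cells. With the pathway genes kept for clustering, the cholesterol sum was 0.931 in suprabasal and 0.994 in upper follicle cells, the fatty acid sum was 0.981 in upper follicle and 1.7 in sebocyte cells and the genes at least 1.5-fold apart numbered 1 of 26 in basal cells. In the sebocytes with at least 0.5% of marker UMIs, an alternative added after the data were seen, the cholesterol sum was 1.22 in sebocyte cells, the fatty acid sum was 1.33 in sebocyte cells and the genes at least 1.5-fold apart numbered 3 of 23 in sebocyte cells. Without the shared barcodes, the genes at least 1.5-fold apart numbered 1 of 26 in basal cells. Without the 8% of cells with the highest doublet scores, the cholesterol sum was 0.923 in suprabasal, 1.08 in upper follicle and 4.03 in fibroblast cells, the fatty acid sum was 1.03 in suprabasal and 1.69 in sebocyte cells and the genes at least 1.5-fold apart numbered 2 of 26 in basal cells. The small classes limit precision: 66 and 75 sebocytes, 52 sitagliptin-labelled fibroblasts and 62 sitagliptin-labelled dendritic or Langerhans cells. Fibroblasts with at most 1% of UMIs in keratinocyte markers gave no value, since 5 sitagliptin-labelled cells were left, and equal weights for clusters gave a value only for basal, suprabasal and upper follicle cells. No paired analysis was possible because each treatment has 1 library.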
